A study of Mus musculus with 8 samples.

Results

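The axon guidance ligands and receptors measured here are the semaphorins, plexins, neuropilins, netrins and their receptors, Slits, Robos, ephrins and Eph receptors. They were chosen by a rule on the gene symbol alone, which used no measured value, though earlier results of these data were known. The rule matched 56 of the 13558 transcripts in the table. Of 72 protein-coding RefSeq genes whose symbols match, 56 were in the table and 16 were not analysed here, Dcc, Nrp1, Plxna4 and Robo2 among them. The symbol rule also takes in Unc50 and Unc5cl, which share the letters of the netrin receptor genes but are not guidance receptors. The other 54 members comprise 30 ligands and 24 receptors.

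Guidance molecules steer growing axons by attraction or repulsion, and most also act in blood vessels, epithelia and early embryos. Semaphorins signal through plexins, and the secreted class 3 semaphorins mostly need a neuropilin as co-receptor, with Sema3e as an exception that binds Plxnd1 directly. Ntn1 attracts axons through Dcc and Neo1 and repels them through the Unc5 receptors. Slits are secreted repellents that bind Robo receptors. Ephrins are anchored in the membrane and bind Eph receptor tyrosine kinases on neighbouring cells, the ephrin-A proteins mainly EphA receptors and the ephrin-B proteins mainly EphB receptors.

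The members were measured by mRNA sequencing of C57BL/6 mouse embryonic stem (mES) cells, pluripotent cells cultured from the early embryo, in 4 libraries of genotype Trim-/- (KO) and 4 of genotype Trimfl/fl (WT). The lines carried a conditional Trim71 allele together with Rosa26-CreERT2, a Cre recombinase expressed from a ubiquitous locus and switched on by 4-hydroxytamoxifen (4-OHT). Trim71 encodes an RNA-binding ubiquitin ligase, and Cre removes only its last exon, so that RNA from the earlier exons can still be made. For KO the labels give 500 nM 4-OHT over 2 days and at least 7 further days in culture. The study's methods give a lower dose and a shorter further culture, and the solvent DMSO for control cells. All cells were kept in serum and LIF in fibroblast-conditioned medium and were selected for the surface antigen SSEA-1. KO replicates 1 to 3 came from clone E3 on days 2, 3 and 4 and KO replicate 4 from clone 1 on day 5. WT replicates 2 and 3 came from clone E3 on days 3 and 4, and WT replicates 1 and 4 from clone 1 on days 1 and 5. The genotypes therefore rest on 2 clones. Where nothing says that libraries came from separate cultures, p-values measure only the spread between these libraries, which may be technical.

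Values are normalized read counts after the authors' subtraction of a clone effect. Reads recovered from them came to between 6548439 and 24431198 per library. Trim71 itself lay between 247 and 793 in the KO libraries and between 1988 and 2782 in the WT libraries, with a log2 fold change of -2.39 ± 0.35 (SE). The embryonic stem cell markers Pou5f1 and Sox2 were present in all libraries, Pou5f1 at 12374 or more and Sox2 at 5292 or more, and 0 of 10 such markers passed the criterion used below. With day as a block, a fit described below, 1 of the 10 passed, where 7.49% of all transcripts did. This was the pluripotency factor Klf4, named here after its values were seen, with a log2 fold change of 0.73 and KO above WT on each of days 3, 4 and 5.

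A transcript passed the criterion when its unadjusted limma p was under 0.05 and its fold change, on the log2(value + 1) scale, was at least 1.5 in either direction. Of the 56 members 9 passed, which is 16.1%, against 576 of all 13558 transcripts (4.25%). Higher in KO were 5 members, namely Ntn1, Plxnb2, Epha2, Robo4 and Efna3, where the share over all transcripts was 1.76%. Lower in KO were 4, namely Sema3e, Sema5a, Sema6a and Plxna2, where that share was 2.49%. After Benjamini-Hochberg adjustment over the whole table, a limma adjusted p under 0.05 was found for 0 members and 0 transcripts. Ntn1 shared the smallest adjusted p in the table, 0.275, with other transcripts. At an unadjusted p under 0.05 there were 11 members and 1232 transcripts. Plxnb2 is one of the transcripts that the study picked from these libraries for follow-up, so that choice is not separate evidence of its rise. By flow cytometry the study reports more Plexin B2 protein on the surface of Trim71-/- cells, which was not measured here.

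KO and WT values did not overlap in 10 members, 6 of them higher and 4 lower in KO, which is 17.9% of members against 10.1% of all transcripts. With the authors' clone correction undone, 6 of the 56 members did not overlap (10.7%), against 6.9% of the transcripts for which this could be computed. These were Ntn1, Plxnb2, Efna3, Sema4a, Sema3e and Sema5a, all among the 10. Epha2, Robo4, Sema6a and Ephb6 then overlapped. A fold change of at least 1.5 was seen in 15 members (26.8%), against 9.73% of all transcripts. The median log2 fold change was 0.09 over the members and -0.00036 over all transcripts.

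**Figure D1:**
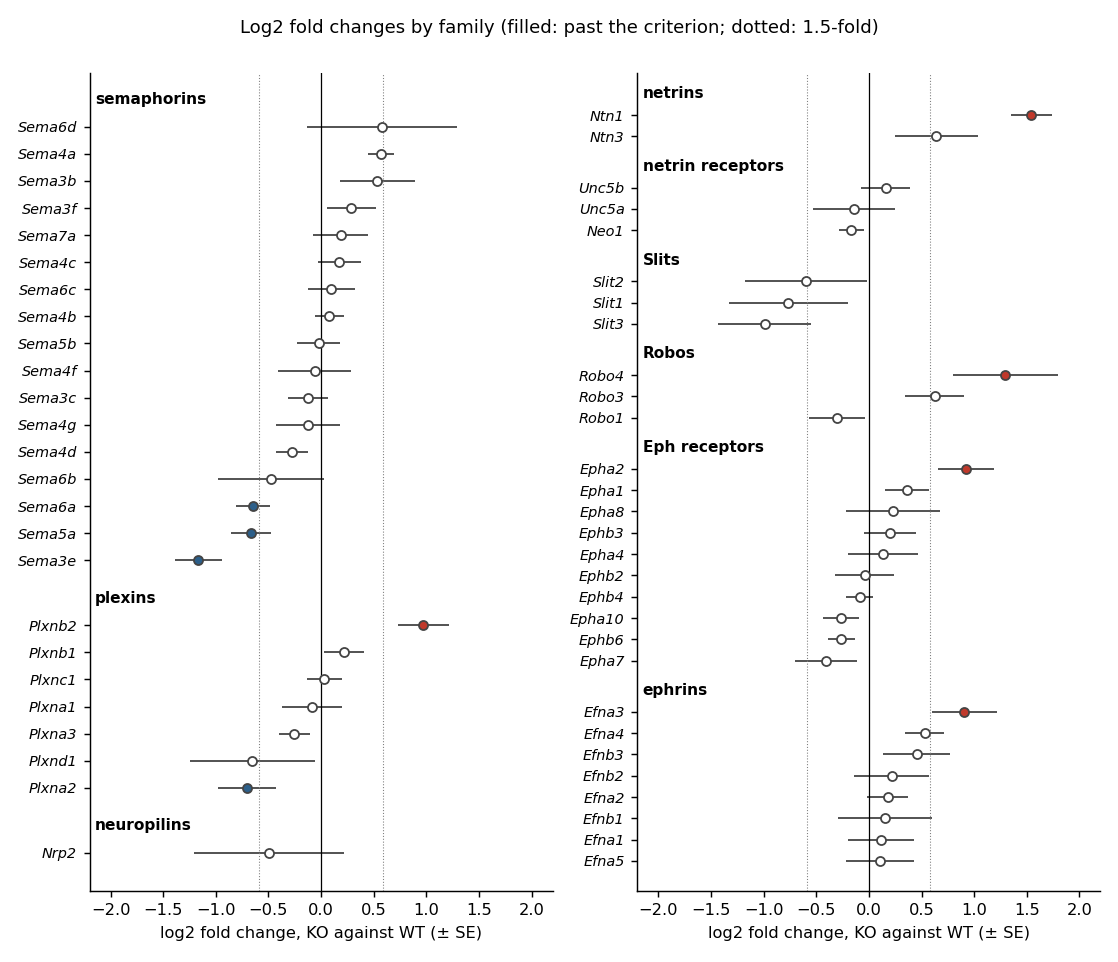
Log2 fold change of KO against WT with its standard error (horizontal axis) for the 54 guidance ligands and receptors, grouped by family. The 9 filled points are members past the criterion, and dotted lines mark a fold change of 1.5. The ephrins all lie above 0 and the 3 Slits all below it, but only Efna3 among them passed.

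KO replicate 4 is the only KO library of clone 1. Without it the genotype difference comes from clone E3 alone, while the clone 1 WT libraries still enter the estimate of spread. The criterion was then passed by 6 members (2 higher and 4 lower) and by 1.92% of all transcripts. Ntn1, Plxnb2, Sema3e, Sema5a and Sema6a still passed and Epha7 was added, whereas Epha2, Efna3, Robo4 and Plxna2 did not. A fit of the clone E3 libraries only was passed by 6 members and by 2.05% of all transcripts. There Robo4 passed and Plxnb2 did not. WT replicate 3, the deepest library, moved the count the other way: without it 12 members passed, 9 of them higher in KO, and 6.16% of all transcripts did. In days 3, 4 and 5, on which both genotypes were sampled, a fit with day as a block called 8 members (6 higher and 2 lower) and 7.49% of all transcripts. The same 6 libraries without the block gave 7 members, against 3.96% of all transcripts. Plxna2 and Sema6a were thus not called in these libraries with or without the block, and Sema3b was called only with it. The same block on recovered reads, with limma-voom, called 8 members (5 higher and 3 lower), against 8% of all transcripts, among which Sema6a was called and Sema3b was not.

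Level was compared between members only per length of merged exons, in normalized reads per kilobase (kb). In WT, Epha2 had the highest mean with 449 reads per kb, followed by Plxna1 (311), Plxnb2 (307) and Sema4b (261). In KO the order was Epha2 (862), Plxnb2 (615), Plxna1 (301) and Sema4b (276). Ntn1 went from rank 15 of 56 in WT, at 66.5 reads per kb, to rank 6 in KO, at 199. Sema3e went from rank 10, at 86.1 reads per kb, to rank 21, at 38.9. The members thus covered a wide range of levels, and 15 of the 56 had a mean under 50 normalized reads.

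**Figure D2:**
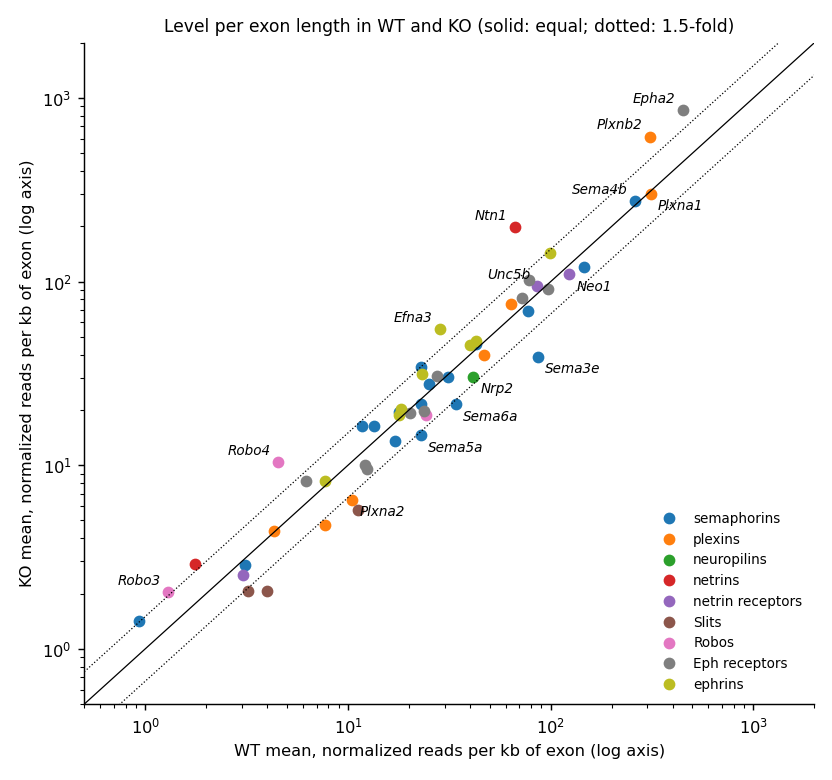
Mean level in KO (vertical, log axis) against WT (horizontal, log axis) for the 54 guidance ligands and receptors, in normalized reads per kb of merged exon, coloured by family. The solid line marks equal levels and the dotted lines a 1.5-fold difference. Epha2, Plxnb2 and Ntn1 lie above the upper dotted line and Sema3e lies furthest below the lower one among the members above 20 reads per kb.

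The DNA just upstream of the start is shown for 4 members, 2 that rose (Plxnb2 and Epha2) and 2 that fell (Sema3e and Sema5a), so that the promoters of members moving in opposite directions can be read side by side. Each is the 250 bases before the RefSeq start on build GRCm38.p6, 5′ to 3′ on the strand of the gene. Capitals mark GC boxes, the letters GGGCGG on either strand, which are the core of the site bound by Sp-family factors.
Plxnb2, chr15:89180789-89181038, minus strand: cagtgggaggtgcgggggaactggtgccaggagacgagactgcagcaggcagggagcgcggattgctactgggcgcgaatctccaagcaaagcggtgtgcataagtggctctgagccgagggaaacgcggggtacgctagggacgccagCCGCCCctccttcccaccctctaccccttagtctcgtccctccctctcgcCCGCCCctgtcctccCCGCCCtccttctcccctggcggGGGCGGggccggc
Epha2, chr4:141300971-141301220, plus strand: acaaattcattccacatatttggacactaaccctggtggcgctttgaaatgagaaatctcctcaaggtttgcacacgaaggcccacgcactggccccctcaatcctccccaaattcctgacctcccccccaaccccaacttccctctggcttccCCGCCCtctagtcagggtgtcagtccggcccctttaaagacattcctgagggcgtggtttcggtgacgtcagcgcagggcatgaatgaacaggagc
Sema3e, chr5:14025026-14025275, plus strand: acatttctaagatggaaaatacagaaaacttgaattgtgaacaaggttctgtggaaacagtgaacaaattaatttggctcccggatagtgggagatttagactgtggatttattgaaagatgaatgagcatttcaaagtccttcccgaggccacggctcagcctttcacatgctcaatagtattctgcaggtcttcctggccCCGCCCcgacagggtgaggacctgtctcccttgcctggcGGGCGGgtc
Sema5a, chr15:32244563-32244812, plus strand: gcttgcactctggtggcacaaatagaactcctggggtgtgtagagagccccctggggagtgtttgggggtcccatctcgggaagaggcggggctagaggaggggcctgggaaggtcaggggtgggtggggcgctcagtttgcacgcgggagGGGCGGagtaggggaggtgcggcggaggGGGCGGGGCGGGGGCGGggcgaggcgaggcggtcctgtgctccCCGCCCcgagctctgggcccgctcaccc
The Plxnb2 window held 4 GC boxes, that of Epha2 1, that of Sema3e 2 and that of Sema5a 5. None of the 4 windows held CCAAT or TATAAA on either strand. GC boxes were thus found upstream of both risen and both fallen members. Among the 63 windows of the 49 members with an entry, 51 (81.0%) held a GC box, against 57.9% of the 12980 windows of transcripts in the table and 32.7% of all 32851 windows. Of the members past the criterion 7 had an entry, with 9 windows in all, and Ntn1 had none. Where a gene had several windows, the first listed is shown. Sema6a, Plxna2, Robo4 and Efna3 are not shown.

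Among the ligands, Ntn1 had the largest rise. Ntn1 lies on chromosome 11 from 68209364 to 68400823 (mm10). Its normalized read counts for replicates 1 to 4, in that order here and below, were 844, 1289, 1459.9 and 1245 in KO and 378, 452, 394 and 396 in WT. Every KO library lay well above every WT library, and the lowest was KO replicate 1, the only library of day 2. The means were 1209 ± 261 in KO and 405 ± 32.4 in WT (SD, n = 4 for both). The log2 fold change was 1.54 ± 0.19 (SE), with an unadjusted limma p of 8.1e-05, the fourth smallest of all transcripts. The exact two-sided permutation test gave p = 0.0286, the smallest this design allows. Before the clone correction, KO exceeded WT by 1.30 in clone E3 and by 2.02 in clone 1 on the log2 scale. Ntn1 passed the criterion under all 20 alternative settings, with log2 fold changes between 1.46 and 1.69. The other netrin, Ntn3, was near the detection limit, at 14.1, 9.49, 12.6 and 22.0 in KO and 5.87, 10.4, 14.9 and 4.51 in WT. Its groups overlapped, its log2 fold change was 0.64 with an unadjusted limma p of 0.146, and the fold change fell to -0.06 without KO replicate 4.

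The netrin receptors did not pass. Neo1, the most abundant of them, which also serves as a receptor for repulsive guidance molecules, was at 737, 854, 837 and 804 in KO and at 984, 848, 967 and 839 in WT. Its groups overlapped and its log2 fold change was -0.17 ± 0.12 (SE). Unc5b had a log2 fold change of 0.16 and Unc5a, at a mean of 11.1 normalized reads, one of -0.14. Unc50, a membrane protein of the nuclear envelope and Golgi, was at 394, 329.6, 401 and 414 in KO and at 288, 303, 386 and 341 in WT, with a log2 fold change of 0.23 and overlapping groups. Unc5cl had a log2 fold change of 0.07.

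Of the 17 semaphorins 3 passed, all lower in KO, and 8 had a log2 fold change above 0 and 9 below it. Sema3e, a secreted repellent best known in vessel patterning, lies on chromosome 5 from 14025276 to 14256689 (mm10). It was at 294, 338, 199 and 238 in KO and at 731, 625, 527 and 480.3 in WT. All WT libraries lay above all KO libraries, with a gap between the highest KO library and the lowest WT library. The means were 267 ± 61.4 (SD, n = 4) and 591 ± 111 (SD, n = 4), and Sema3e fell by 1.17 on the log2 scale (SE 0.22), with an unadjusted limma p of 0.0011 and an adjusted one of 0.367. Before the clone correction, the difference on the log2 scale was -1.26 in clone E3 and -1.15 in clone 1. Sema3e passed the criterion under all 20 alternative settings, with log2 fold changes between -1.27 and -1.04.

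Sema5a, a transmembrane semaphorin with thrombospondin repeats, lies on chromosome 15 from 32244810 to 32696341 (mm10). It was at 174, 178, 106 and 170.2 in KO and at 243, 262, 244 and 237 in WT, so the WT libraries were tightly grouped and KO replicate 3 was the lowest. Its log2 fold change was -0.67 ± 0.19 (SE), at an unadjusted limma p of 0.0103. Without KO replicate 3 it was -0.51, under the fold threshold. Sema6a, a transmembrane semaphorin that acts as ligand and receptor for A-type plexins, was at 139, 159, 145 and 169 in KO and at 264, 289, 213 and 206 in WT. The groups were apart, with means of 153 ± 13.6 in KO and 243 ± 40.2 in WT (SD, n = 4 for both), and the log2 fold change was -0.65 ± 0.16 (SE). With the clone correction undone, KO replicate 4 rose to 204, above WT replicate 3 at 177. In the 6 libraries of days 3, 4 and 5 the log2 fold change of Sema6a was -0.56, under the fold threshold, with or without day as a block.

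Sema4a moved the other way and missed the fold threshold. It encodes a transmembrane semaphorin known from immune cells and the retina, and was at 115, 118, 115 and 124 in KO and at 76.4, 92.6, 71.8 and 75.1 in WT. The groups did not overlap, also with the clone correction undone. Its log2 fold change was 0.57 ± 0.12 (SE), with an unadjusted limma p of 0.0022, and it passed the criterion under 5 of 20 alternative settings. Sema4b, the semaphorin with the highest mean, was at 1019, 1105, 1285 and 1030.3 in KO and at 1199, 1026, 994 and 979 in WT. The groups overlapped, and the log2 fold change was 0.08 ± 0.13 (SE). The remaining class 3 members Sema3b, Sema3c and Sema3f did not pass, with log2 fold changes of 0.53, -0.12 and 0.29, and with day as a block that of Sema3b was 0.66 with an unadjusted limma p of 0.0210. Of the 6 class 4 semaphorins 0 passed, and of the 4 class 6 semaphorins only Sema6a did. Sema6d, with a mean of 8.43 normalized reads and WT replicate 1 at the floor of 1, could hardly be measured.

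Among the 7 plexins, the semaphorin receptors, 1 passed in each direction. Plxnb2, a receptor for class 4 semaphorins that is broadly expressed in neural progenitors and epithelia, lies on chromosome 15 from 89155549 to 89180788 (mm10). It was at 2903, 3551, 5279.7 and 4430.0 in KO and at 1711, 1796, 2632 and 1938 in WT. All KO libraries lay above all WT libraries, and the libraries of day 4 were the highest of either genotype. The means were 4041 ± 1036 (SD, n = 4) and 2019 ± 419 (SD, n = 4), and the log2 fold change was 0.97 ± 0.24 (SE), with an unadjusted limma p of 0.0045. With day as a block the log2 fold change was 1.06 and that p was 0.00039. On recovered reads with the same block, Plxnb2 was the only member with a limma-voom adjusted p under 0.05 (0.0433). Within clone E3 alone the log2 fold change was 0.80 and the unadjusted limma p 0.0561. Its homologue Plxnb1 had a log2 fold change of 0.22 and did not pass.

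Plxna2, a receptor of Sema6a and of class 3 semaphorin complexes, lies on chromosome 1 from 194618218 to 194816869 (mm10). It was at 69.5, 85.2, 84.3 and 48.1 in KO and at 129.9, 74.0, 134 and 126 in WT. WT replicate 2 stood apart from the other WT libraries and lay among the KO libraries, so the groups overlapped. The log2 fold change was -0.71 ± 0.28 (SE), with an unadjusted limma p of 0.0366, and the exact permutation p was 0.0857. Plxna2 passed under 10 of 20 alternative settings only, and its log2 fold change was -0.33 without KO replicate 4 and -1.05 without WT replicate 2. In the 6 libraries of days 3, 4 and 5 the unadjusted limma p was 0.133 with day as a block and 0.134 without. Plxnd1, the receptor of Sema3e, was at 14.3, 23.6, 64.5 and 27.7 in KO and at 67.9, 19.3, 81.8 and 42.9 in WT. Its groups overlapped over most of their range, and its log2 fold change was -0.65 ± 0.60 (SE). Plxna1, Plxna3 and Plxnc1 had log2 fold changes of -0.09, -0.25 and 0.03. Nrp2, the neuropilin in the table and a co-receptor of class 3 semaphorins, was at 337, 511, 70.4 and 335 in KO and at 472, 716, 169 and 368 in WT. The libraries of day 4 were the lowest and those of day 3 the highest of either genotype, and the log2 fold change was -0.49 ± 0.71 (SE).

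**Figure D3:**
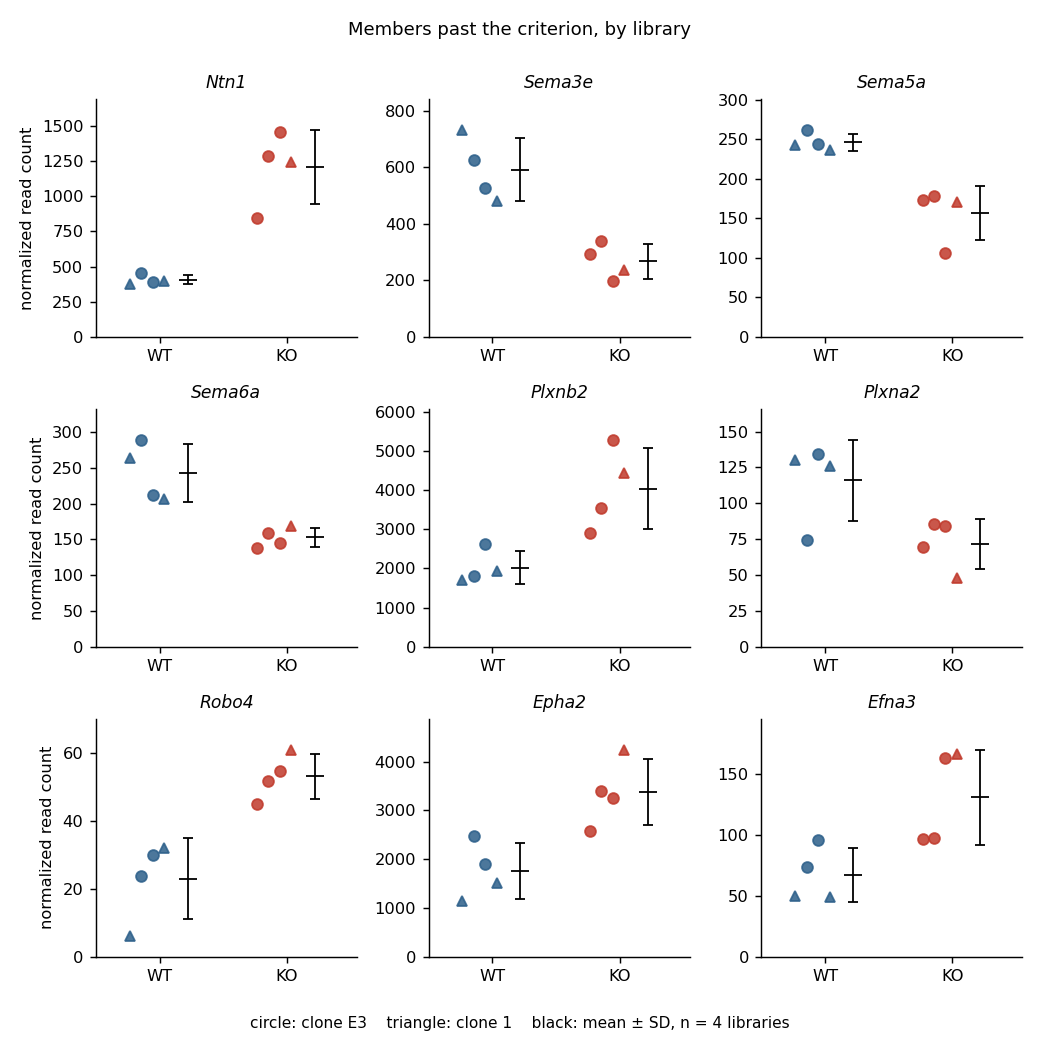
Normalized read counts (vertical axis, from 0) of the 9 members past the criterion in the 4 WT and 4 KO libraries, with circles for clone E3, triangles for clone 1 and black bars for the mean ± SD. In Ntn1 the KO libraries sit between 844 and 1459.9 and the WT libraries between 378 and 452, and of the 9 members only Plxna2 shows an overlap.

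The 3 Slits, secreted ligands of the Robo receptors, had log2 fold changes of -0.76, -0.60 and -0.99 (Slit1, Slit2 and Slit3), and 0 of 3 passed. Slit1 was at 4.13, 15.1, 22.4 and 6.44 in KO and at 24.9, 9.04, 22.8 and 18.1 in WT. Slit2, the most abundant, was at 46.4, 45.9, 70.3 and 65.9 in KO and at 155, 33.0, 201 and 61.4 in WT. Slit3 was at 6.16, 10.8, 19.7 and 6.36 in KO and at 30.7, 12.6, 24.7 and 15.4 in WT. In all 3, WT replicates 1 and 3 were the highest of the WT libraries and WT replicate 2 the lowest, and the groups overlapped. The unadjusted limma p was 0.217, 0.339 and 0.0579 in turn, and the log2 fold change of Slit2 was 0.09 without WT replicate 3. Slit1 and Slit3 were counted on as few as 4 and 5 reads per library.

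Of the 3 Robo receptors Robo4 passed. Robo4, known mainly from endothelial cells, where it stabilizes vessels and binds Unc5b, lies on chromosome 9 from 37401897 to 37415115 (mm10). It was at 45.2, 51.8, 54.7 and 61.0 in KO and at 5.97, 23.8, 30.0 and 32.2 in WT. The groups were apart in the deposited values, but they rested on 31 to 57 reads in KO and 5 to 36 in WT. With the clone correction undone, WT replicate 4 was at 47.2, above KO replicates 1 to 3, at 30.2, 36.8 and 39.8. The log2 fold change was 1.30 ± 0.50 (SE), with an unadjusted limma p of 0.0338. Without KO replicate 4 these values were 0.89 and 0.191. In the clone E3 libraries only, the log2 fold change was also 0.89, with an unadjusted limma p of 0.0055. Robo1, the receptor through which Slits repel most axons, was at 138, 134, 163 and 136 in KO and at 239, 123, 239 and 136 in WT. As in the Slits, WT replicates 1 and 3 were the high ones, and the log2 fold change was -0.30 ± 0.27 (SE). Robo3, which in commissural neurons modulates the response to Slits, was at 8.76, 9.15, 13.1 and 10.8 in KO and at 3.66, 5.65, 7.87 and 9.22 in WT, with a log2 fold change of 0.62 and an unadjusted limma p of 0.0590. Robo3, Ntn3 and Sema6d were kept in the table through their KO mean alone, the WT mean being under 10, and so had to differ to some degree.

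**Figure D4:**
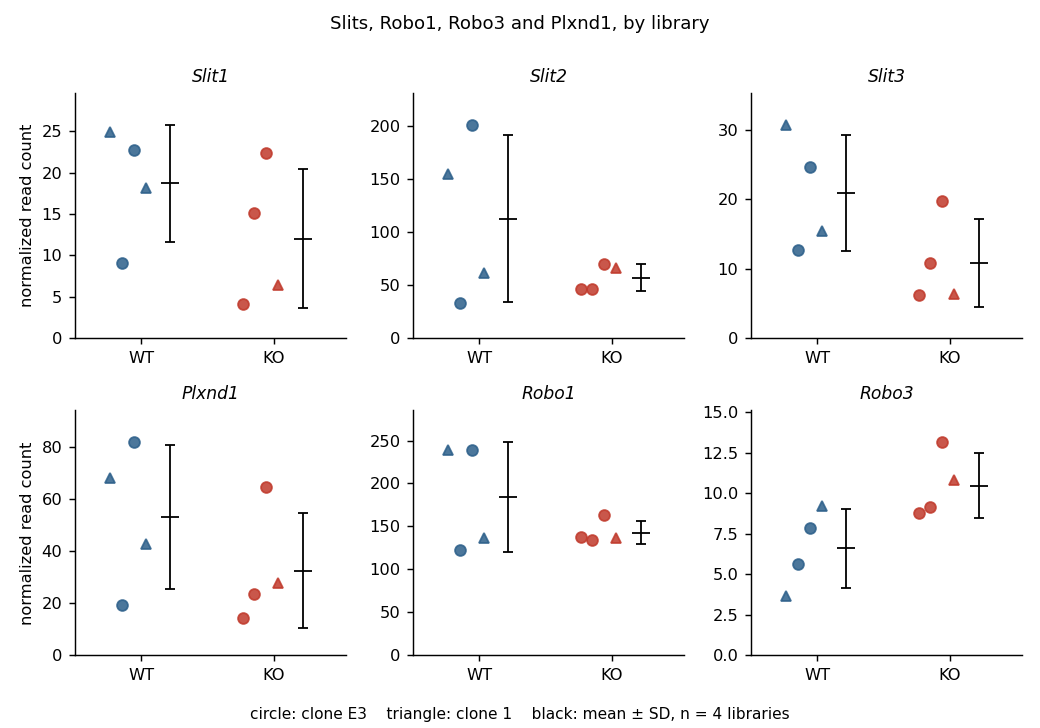
Normalized read counts (vertical axis, from 0) of Slit1, Slit2, Slit3, Plxnd1, Robo1 and Robo3 in the 4 WT and 4 KO libraries, with circles for clone E3, triangles for clone 1 and black bars for the mean ± SD. The groups overlap in each of the 6, and WT replicates 1 and 3 are the highest WT libraries in the Slits, Plxnd1 and Robo1.

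Of the 10 Eph receptors only Epha2 passed, and 5 had a log2 fold change above 0 and 5 below it. Epha2, a receptor tyrosine kinase abundant in mES cells and epithelia, lies on chromosome 4 from 141301240 to 141329384 (mm10). It was at 2585, 3398, 3266 and 4245 in KO and at 1142, 2479.8, 1908 and 1502 in WT. KO replicate 4 was the highest of all, and KO replicate 1 was just above WT replicate 2. The means were 3373 ± 682 (SD, n = 4) and 1758 ± 574 (SD, n = 4). The log2 fold change was 0.92 ± 0.27 (SE), at an unadjusted limma p of 0.0107. Without KO replicate 4 these values were 0.49 and 0.0684. Before the clone correction, the difference on the log2 scale was 0.65 in clone E3 and 1.32 in clone 1, and KO replicate 1 lay at 1944, below WT replicate 4 at 2143. Ephb6, a family member that lacks kinase activity, was at 74.3, 86.7, 63.9 and 72.9 in KO and at 92.5, 89.7, 87.1 and 87.5 in WT. Its groups were apart by a narrow margin, its log2 fold change was -0.26 ± 0.13 (SE), and its unadjusted limma p was 0.0760. The other 8 Eph receptors had log2 fold changes between -0.41 (Epha7) and 0.37 (Epha1). Epha7 passed without KO replicate 4 and within clone E3.

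The 8 ephrins had log2 fold changes above 0, with a median of 0.20, where 6774 of the 13558 transcripts lay above 0, and 1 of the 8 passed. With day as a block 6 of the 8 were above 0, and Efna5 and Efnb1 were at -0.06 and -0.09. Efna3, a ligand of EphA receptors, lies on chromosome 3 from 89313899 to 89322965 (mm10). It was at 96.7, 97.2, 163 and 166 in KO and at 49.8, 73.8, 95.8 and 49.0 in WT. The groups were apart by a narrow margin between WT replicate 3 and KO replicate 1. The log2 fold change was 0.91 ± 0.31 (SE), at an unadjusted limma p of 0.0202. Without KO replicate 4 these values were 0.45 and 0.152. Efna4 had a log2 fold change of 0.53 and an unadjusted limma p of 0.0229, under the fold threshold. Efnb2, a ligand of EphB receptors, was at 201, 249, 175 and 281 in KO and at 109, 305, 159 and 246 in WT. Its groups overlapped, and its log2 fold change of 0.22 ± 0.35 (SE) became -0.09 without KO replicate 4.

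Ligands and receptors can be set side by side for pairs in which a member passed, though no pair is given for Sema5a. In the Ntn1 pair the ligand rose while Neo1, Unc5a and Unc5b did not pass. Sema3e fell, and its receptor Plxnd1 had a log2 fold change of -0.65 with overlapping groups. Sema6a and Plxna2 both fell, though Plxna2 passed in only 10 of 20 alternative settings. Plxnb2 rose, while among the class 4 semaphorins, its ligands, 0 of 6 passed and Sema4c and Sema4d had log2 fold changes of 0.17 and -0.28. Efna3 and Epha2 both rose when all 8 libraries were compared, and neither passed the criterion without KO replicate 4. Robo4 rose, and Unc5b, its partner, did not pass.

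The 33 members not described by library had log2 fold changes between -0.48 and 0.58 and unadjusted limma p-values of 0.0229 or more. Over all 56 members the KO libraries did not contribute evenly. KO replicate 1 was the lowest KO library in 30 members (53.6%, against 29.8% of all transcripts) and the highest in 1 (1.79%, against 30.6%). KO replicate 3 was the highest KO library in 28 members (50%, against 37.5%), and WT replicate 3 the highest WT library in 23 (41.1%, against 31.1%). Both libraries of day 4 were the highest of their genotype in 14 members (25%, against 19.3%). The part of the sampling day in these differences was not tested.

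Whether the genotype effect differed between the clones was tested as an interaction, across all transcripts. Of the members 0 had an adjusted limma p under 0.05, against 0.0885% of all transcripts, and 4 had an unadjusted p under 0.05 (7.14%, against 2.59% of all transcripts). These were Sema6d, Ntn3, Epha2 and Efna3, with interaction terms of 3.63, 1.96, 1.20 and 1.28 on the log2 scale. All were in the direction of a higher KO value relative to WT in clone 1. The terms are of clone-corrected values. Before that correction, KO minus WT of Epha2 was 0.65 in clone E3 and 1.32 in clone 1 on the log2 scale. For Efna3 it was 0.56 and 1.49, and for Ntn3 -0.08 and 1.46. Sema6d and Ntn3 were kept in the table by their KO mean alone, and in Sema6d KO replicate 4, at 20.6 against 4.73 to 9.60 in the other KO libraries, lifted that mean over 10. Clone 1 gave a single KO library to this test. Its libraries came from days 1 and 5, and those of clone E3 from days 2, 3 and 4. Clone and day therefore cannot be told apart here.

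**Figure D5:**
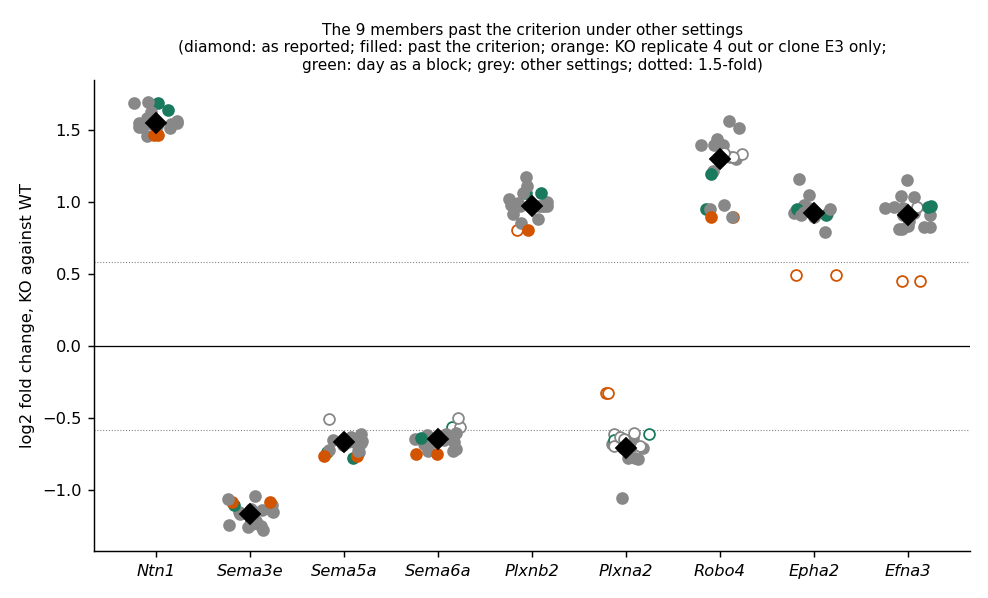
Log2 fold change of KO against WT (vertical axis) of the 9 members past the criterion, as reported (diamonds) and under the alternative settings (circles, filled where the criterion was passed). Orange circles leave out KO replicate 4 or use clone E3 only, and green circles have day as a block. Ntn1 and Sema3e stay filled throughout, while Epha2, Efna3 and Plxna2 move towards 0 in the orange settings.

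Downstream genes of these pathways were examined as lists. In the table were 83 pathway genes, of which 4 passed (4.82%), near the 4.25% of all transcripts, with a median log2 fold change of -0.08. Among 25 genes of semaphorin and plexin signalling 2 passed. Dpysl3, a cytosolic protein of the collapsin response mediator family, was at 1051, 1138, 1152 and 1023 in KO and at 2062, 1644, 2004 and 1722 in WT, with a log2 fold change of -0.77. Mras, a small GTPase of the Ras family to which plexin target proteins belong, was at 233, 221, 234 and 263 in KO and at 69.3, 114, 104 and 97.4 in WT, with a log2 fold change of 1.28. The groups were apart in both, and both passed also without KO replicate 4. The study picked Mras from these libraries for follow-up.

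Of 8 genes of netrin signalling, 9 of Slit and Robo signalling and 12 of ephrin and Eph signalling, 0 passed. The summed level of the 12 genes of ephrin and Eph signalling was between 4356 and 4769 in the KO libraries and between 5034 and 5661 in the WT libraries. The sum over all 83 pathway genes did not overlap either, at 69359 to 70850.0 in KO and 72582 to 74224 in WT. Most of it came from the shared cytoskeletal effectors, whose own sums overlapped, at 45700 to 46723 in KO and 46658 to 48598 in WT. These sums are of clone-corrected values, and how often sums of other gene sets are apart was not tested. Of the 12 genes of ephrin and Eph signalling 10 had a log2 fold change below 0, where 6784 of the 13558 transcripts did. Their median was -0.21. Of 25 shared cytoskeletal effectors only Pak3 passed, a kinase activated by Rac and Cdc42, with a log2 fold change of -0.69. Of 5 axonal adhesion genes only Nrcam passed, an adhesion molecule of the L1 family, with a log2 fold change of -0.86. Pak3 and Nrcam did not pass without KO replicate 4, with unadjusted limma p-values of 0.0605 and 0.0767. Among the 83 pathway genes, 7 passed with day as a block, where 7.49% of all transcripts did.

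Markers of other cell types were read in the same libraries, since in bulk samples fewer cells of a type and less RNA per cell cannot be told apart. The table held 32 of the 46 such markers listed. Of the 32, 2 passed, Olig2, a neural progenitor factor, with a log2 fold change of 0.68, and Tek, an endothelial receptor, with one of -0.67. Neither passed without KO replicate 4, where Olig2 was at 0.47 and Tek at -0.52. Of 9 neural markers 1 passed, and only 3 had a log2 fold change above 0, with a median of -0.21 over the 9. Their summed level lay between 1812 and 2396 in KO and between 1874 and 2424 in WT. For endothelium, in which Robo4, Sema3e and Plxnd1 are best known, 1 of 4 markers passed. Their summed level was 690.1 to 1148 in KO and 715 to 1169 in WT, and Cdh5, Tie1, Emcn and Sox18 were not in the table. Of 6 fibroblast markers 0 passed, at summed levels of 148 to 265 in KO and 136 to 246 in WT. The 10 primitive endoderm markers had a median log2 fold change of 0.66, 0 of them passed, and their summed level ranged from 13392 to 17865 in KO and from 8030 to 15155 in WT. Without KO replicate 4 that median was -0.0081. Of 4 mesoderm markers 0 passed, at summed levels of 154 to 219 in KO and 109 to 183 in WT. Their part in the members' differences was not tested.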

How the data were processed

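Poly(A)+ mRNA of 8 libraries was sequenced with a kit that does not mark strand, so reads of overlapping antisense genes cannot be told apart. The authors called bases with CASAVA 1.8, aligned to mm10 with TopHat2 and Bowtie2 2.2.1, counted reads per RefSeq transcript in Partek 6.6, normalized the counts with DESeq2, removed a batch effect, set values under 1 to 1 and dropped transcripts whose higher group mean was under 10. The deposited values are thus normalized signal rather than counts, and no per-sample column was left out. They fitted an additive clone effect subtracted on the linear scale. Undoing it gave whole reads for 99.1% of transcripts (13442 of 13558).

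The test was limma 3.58.1 (R 4.3.3) with terms for genotype and clone, run on log2(value + 1) over the whole table, with Benjamini-Hochberg adjustment. In data simulated for 13210 transcripts, 195 of 200 changed 4-fold had an adjusted p under 0.05, as had 3 others. Of the unchanged ones 621 (4.77%) passed the criterion. The simulation used the same dispersion for every transcript, set by hand and not estimated from these libraries, and no day or clone differences. The 4.77% depends on that dispersion, so it does not give the share that chance alone would yield in the real data. Its 4-fold change is larger than that of any member, so it does not give the power for the members. Single values were compared by exact two-sided permutation over 70 assignments. Members described by library were those past the criterion, with groups apart, with a fold change of at least 1.5 or with the highest mean of a family, not divided by length. Members and lists were chosen with earlier results of these data known. Promoter windows and RefSeq names are from RefSeq (GRCm38.p6), and positions and exon lengths from GENCODE vM21. The other steps used Python 3.11.15 with scipy 1.17.1, pandas 2.3.3, matplotlib 3.10.9 and numpy 2.4.6.

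The labels give the day of each library, and days 3, 4 and 5 had 1 library of both genotypes, so day was taken to pair them. Deviations from the group means correlated at -0.23 to 0.54 within these pairs in the deposited values and at 0.52 to 0.63 with the clone correction undone. Alternatives changed the pseudocount, filter, scaling, model, clone term and block, or left out 1 library.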

Additional observations from a re-analysis of the deposited data

Results flagged for a closer look

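Among 60 groups of 4 libraries checked for a single distant value (the members described by library, the pathway genes past the criterion, Trim71, Pou5f1 and Sox2), 3 were found, the number that chance alone gives at this level. Plxna2 in WT replicate 2 was at 74.0, while the other WT libraries lay between 126 and 134. Robo1 in KO replicate 3 was at 163, with the other KO libraries between 134 and 138. Sema5a in KO replicate 3 was at 106, and the other KO libraries lay between 170.2 and 178. With the clone correction undone these values were 58.1, 156 and 107.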

How the results depend on the processing

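All 9 members past the criterion kept their direction under the alternative settings that included them, 19 for Robo4 and 20 for each of the others. Robo4 was left out by the minimum mean of 50. Of the 9, 2 members, Ntn1 and Sema3e, passed in all 20. All 9 passed together in 6 settings. The count of members past the criterion ranged from 6 to 12 when 1 library was left out. Members with a fold change of at least 1.5 numbered 11 to 17 without 1 library and 9 with a minimum mean of 50.

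Over all transcripts the criterion was passed by 315 with that minimum, 382 in the linear model, 278 in clone E3 only and 260 to 835 without 1 library. An adjusted p under 0.05 was reached by 6 transcripts with the clone correction undone, none of them a member, and by 0 without any 1 library. Pathway genes past the criterion numbered 2 with the minimum mean or in clone E3 only and 2 to 9 without 1 library, other cell type markers 1 in clone E3 only and 0 to 8 without 1 library. The clone interaction counted 12 transcripts as reported, 0 with a pseudocount of 10, the minimum mean, no value at the floor, the linear model, the correction undone or voom, and 0 to 76 without 1 library.

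The replicate block by day, fitted to 6 libraries, put 1015 transcripts, 7 pathway genes and 5 other markers past the criterion, and voom with the block put 1076, 9 and 9 there, with an adjusted p under 0.05 for 4. Without the block the same 6 libraries gave 537 transcripts and 7 members. Against these, the block added only Sema3b among the members and removed none.

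Of the 33 members not described by library, 11 had the other sign in the 6 libraries with the block, with log2 fold changes there of at most 0.25 in size. Among those described, the signs that turned were of members not past the criterion: Efnb2 at -0.0941 without KO replicate 4 or in clone E3 only and -0.01 without WT replicate 1 (-0.0941 to 0.561 without 1 library), Nrp2 at 0.03 without KO replicate 3 (-1.01 to 0.0884), Ntn3 at -0.0589 without KO replicate 4 or in clone E3 only (-0.0589 to 0.99), and Slit2 without WT replicate 3 (-1.27 to 0.091). The cause was not tested in any of these. In 10 members (Ntn3, Plxnd1, Robo3, Robo4, Sema3c, Sema6d, Slit1, Slit3, Unc5a and Unc5cl) at least 1 library held 10 reads or fewer, so counting error is large there.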
